A study of Mus musculus with 12 samples.

Results

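The 75 genes described here encode the machinery that writes, removes and reads histone marks and moves nucleosomes. They were taken by symbol from 22738 rows of a count table of mouse lung tumours, as names that start with Kdm, Setd, Chd, Brd and a digit, Kmt2, Kmt5 or Smarc, together with Ezh1, Ezh2, Eed, Suz12, Ep300, Crebbp, Kat2a and Kat2b. By role they comprised 4 acetyltransferases, 16 methyltransferases, 4 subunits of Polycomb repressive complex 2 (PRC2), 18 demethylases, 7 bromodomain proteins, 10 CHD remodellers and 13 SWI/SNF and ISWI remodelling genes. The other 3 met the rule by their letters alone and were set apart. They are Chdh, a choline dehydrogenase of mitochondria, the antisense transcript Chd3os and the pseudogene Smarca5-ps.

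Histone acetyltransferases place acetyl groups on histone tails, deacetylases (HDACs) take them off, and bromodomain proteins bind to the acetylated tails. Lysine methylation is set by the SET domain enzymes and by PRC2, and removed by the KDM enzymes. SWI/SNF, ISWI and CHD complexes use ATP to slide or evict nucleosomes. In human small cell lung cancer, genes for acetyltransferases and for the KMT2 methyltransferases are recurrently mutated.

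RNA came from tumours of the RPM mouse, which carries Myc lsl/lsl T58A together with p53 fl/fl and Rb1 fl/fl, a model of small cell lung cancer. All 4 groups carried these alleles and received the virus Ad5CGRP-Cre by the airway at 8 weeks of age, whose Cre is driven by the promoter of the neuroendocrine gene CGRP. Combination mice received entinostat, an oral inhibitor of class I HDACs, at 15 mg/kg a day for 28 days together with an antibody that blocks the T cell checkpoint protein PD-1, at 10 mg/kg for 4 weeks. Entinostat mice and anti-PD-1 mice received the named agent alone at the same dose, and control mice received neither. The labels list methylcellulose vehicle and rat IgG2a isotype antibody for controls but do not tell which of them a control library had. Each group had 3 libraries, all with a single batch label, and the labels do not tie each to its own mouse. The p-values therefore cover the variation among these 12 samples, which may be technical in part. Every group held libraries with and without reads of the Y-linked gene Kdm5d, so no group came from a single mouse. The tissue is bulk tumour, in which fewer cells of a type and less RNA per cell cannot be told apart. Gene counts do not separate a recombined allele from an intact one.

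Total counts lay between 31295987 and 54001886 per library. Each control library, at 40534618 or more, was deeper than every treated library, at 40469275 or less. The part of depth in the comparisons against control was not tested. Rpph1, Rn45s and Rmrp, abundant RNAs that code for no protein, took 17.9% ± 0.17 of the counts in the combination group, 17.8% ± 2.22 with entinostat, 27.5% ± 8.15 with anti-PD-1 and 11.4% ± 3.08 in the control group (SD, n = 3 each). All 10 neuroendocrine markers were present, and their summed level lay between 467 and 840 CPM (counts per 1000000 library counts, scaled by TMM factors) with the combination, 596 and 1043 with entinostat, 797 and 1229 with anti-PD-1 and 1138 and 1547 in the control group. The summed level of 16 alveolar markers lay between 266 and 1595 CPM with the combination, 395 and 1451 with entinostat, 327 and 986 with anti-PD-1, and 299.9 and 976 in the control group. For 10 fibroblast markers the ranges were 800.4 to 1973, 1087 to 1306, 242 to 1213 and 428 to 589 CPM in the same order of groups. No marker of these 3 lists was at 0 in all libraries, and their part in the results below was not tested beyond the covariate fit given there.

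Averaged over mice with and without the antibody, 12 of the 75 chromatin genes changed with entinostat, 7 higher and 5 lower. The genes that rose were the methyltransferases Kmt2d, Setd7 and Setd2, the demethylase Kdm6b, the PRC2 enzyme Ezh1, the acetyltransferase Ep300 and the remodeller Chd8. The genes that fell were the SWI/SNF subunits Smarce1 and Smarcb1, the ISWI ATPase Smarca1, the demethylase Kdm4b and the actin methyltransferase Setd3. The 12 genes are 16.0% of the chromatin genes, against 10.6% of all 17426 tested genes, of which 3.87% were higher and 6.74% lower. The median log2 fold change was 0.14 over the chromatin genes and 0.02 over all tested genes. Tests were edgeR's quasi-likelihood F tests, adjusted by Benjamini-Hochberg over all tested genes, with a threshold of 0.05. The value used here is the mean of the effects of entinostat with and without the antibody. Taken by itself, the effect with the antibody (combination against anti-PD-1) gave 0 of the 75 genes and 0% of all genes. The count depended on single libraries, and so did the share of all genes. Without combination library 1, 2 chromatin genes and 3.37% of all genes passed. Without entinostat library 2 these were 3 and 4.01%, and with anti-PD-1 library 1 left out 5 and 4.38%. The number was 6 in each of 4 further fits, those without combination library 3, entinostat library 1, anti-PD-1 library 3 or control library 1, and 7 in each of 3 fits, those without combination library 2, entinostat library 3 or control library 2, while 4.89% to 9.18% of all genes passed in these 7 fits. With the alveolar marker level as a covariate 0 of the 75 and 1.56% of all genes passed, and the 13 genes that passed in any comparison did not change sign in that fit and had a median of 0.913 of the log2 fold change given here. Scaling by upper quartiles in place of TMM moved the median of all genes to 0.15 and gave 14 chromatin genes, 12 higher and 2 lower, without Setd3, Kdm4b and Smarca1. With it 9.63% of all genes passed, 1046 higher and 632 lower, against 674 higher and 1175 lower with TMM. Of the neuroendocrine markers 3 of 10 fell with entinostat (Scg5, Uchl1 and Calca), of the fibroblast markers 2 of 10 rose (Fn1 and Pdgfra), and of the 16 alveolar markers 0 passed at a median log2 fold change of 0.87.

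**Figure D1:**
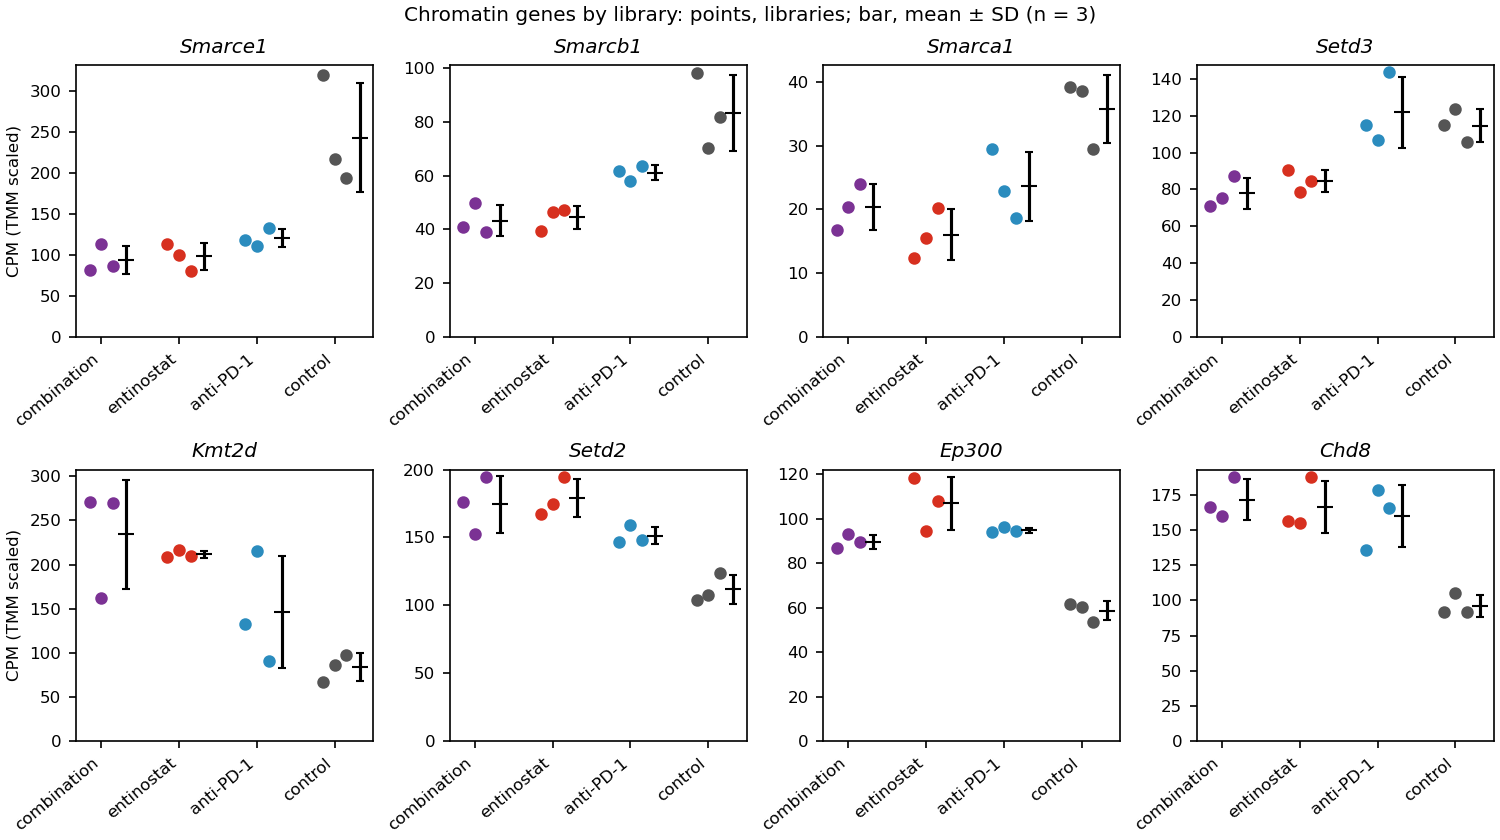
Level of 8 chromatin genes in every library, in CPM scaled by TMM factors on linear axes from 0; points are libraries and the bars beside them the mean ± SD of 3. Smarce1 and Smarcb1 lie lower in all treated groups than in control, and Kmt2d, Setd2, Ep300 and Chd8 lie higher in all 3 treated groups by their means.

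The promoters of the 13 genes were looked up in a RefSeq table of build GRCm38.p6, and 10 matched. Shown here are 3 of them, for a gene that fell and 2 that rose, as the 250 bases before the start of transcription on the gene's strand. Smarcb1 lies at chr10:75921615-75921864, minus strand. Kmt2d lies at chr15:98871206-98871455, minus strand. Setd2 lies at chr9:110532347-110532596, plus strand.
Smarcb1: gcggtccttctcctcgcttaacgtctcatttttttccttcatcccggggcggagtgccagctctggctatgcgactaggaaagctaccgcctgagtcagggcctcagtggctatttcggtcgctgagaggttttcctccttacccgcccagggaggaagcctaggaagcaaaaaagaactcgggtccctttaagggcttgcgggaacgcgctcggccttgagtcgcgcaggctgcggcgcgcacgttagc
Kmt2d: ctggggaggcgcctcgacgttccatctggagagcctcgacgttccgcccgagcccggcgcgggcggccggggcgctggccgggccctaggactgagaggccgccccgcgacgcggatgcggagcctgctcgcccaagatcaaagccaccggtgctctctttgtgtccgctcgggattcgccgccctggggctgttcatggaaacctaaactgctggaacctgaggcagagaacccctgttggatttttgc
Setd2: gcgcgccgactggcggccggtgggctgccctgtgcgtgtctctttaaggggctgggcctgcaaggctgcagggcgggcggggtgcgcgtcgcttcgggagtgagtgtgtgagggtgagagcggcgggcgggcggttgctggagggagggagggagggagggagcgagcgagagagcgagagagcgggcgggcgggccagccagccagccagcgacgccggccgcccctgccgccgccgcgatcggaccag
These windows hold 59.6% G and C for Smarcb1, 67.6% for Kmt2d and 76.0% for Setd2. No letters are in capitals because neither motif searched was found in them. The motifs, searched on both strands in the 250 bases before each start, were CACGTG, the E-box that Myc and related factors bind, and TTTCGCGC or TTTGGCGC, of the E2F type. The E-box was in 2 of 77 windows of chromatin genes and in 6.02% of all 32851 windows, and the E2F type in 0 of 77 and 0.655%.

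The falls that held best were those of the SWI/SNF subunit genes Smarce1 and Smarcb1. Smarce1, a DNA-binding subunit found in all canonical SWI/SNF complexes, stood at 82.0, 113 and 86.7 CPM in the combination libraries, 114, 100.1 and 80.7 with entinostat, 118, 111 and 132 with anti-PD-1, and 319.6, 217 and 194 in the control group. The 3 treated groups lay close together and every one of their libraries was below every control library. Its log2 fold change was −0.83 for entinostat over both settings of the antibody (SE 0.16, edgeR adjusted p = 0.013) and −1.37 for the combination against control (SE 0.23, edgeR adjusted p = 0.00874). Smarcb1, the core subunit lost in rhabdoid tumours, stood at 41.0, 49.8 and 38.9 CPM with the combination, 39.5, 46.6 and 47.1 with entinostat, 61.8, 57.8 and 63.5 with anti-PD-1, and 98.0, 70.1 and 81.8 in the control group. Every library with entinostat lay below every library without it, and the anti-PD-1 libraries fell between. Its log2 fold change with entinostat was −0.70 (SE 0.12, edgeR adjusted p = 0.0111). For Smarce1 and Smarcb1 the call held in each of the 12 fits that left out a library. With the alveolar marker level as a covariate it was lost (edgeR adjusted p = 0.0678 for Smarce1 and 0.0633 for Smarcb1).

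Smarca1, an ISWI ATPase on the X chromosome, was a weakly expressed member. It stood at 16.8, 20.3 and 24.1 CPM with the combination, 12.3, 15.5 and 20.3 with entinostat, 29.4, 22.8 and 18.7 with anti-PD-1, and 39.2, 38.5 and 29.5 in the control group. All libraries with entinostat lay below the control libraries but overlapped those with anti-PD-1. The fall of 0.68 on the log2 scale (log2 fold change −0.68, SE 0.18, edgeR adjusted p = 0.0354) held in 4 of 12 fits that left out a library.

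Of the 13 SWI/SNF and ISWI genes, 3 fell, 0 rose and 10 did not pass. The catalytic subunit Smarca4 averaged 238 ± 44.1 CPM with the combination, 226 ± 10.4 with entinostat, 207 ± 40.5 with anti-PD-1 and 185 ± 33.3 in the control group (SD, n = 3 each). Its alternative Smarca2 averaged 35.0 ± 6.71, 24.4 ± 5.83, 17.2 ± 5.14 and 22.3 ± 19.8 CPM in the same order, and the control libraries alone spanned 3.85 to 43.3 CPM. The scaffold subunit Smarcc1 stood at a log2 fold change with entinostat of 0.33 (SE 0.11, edgeR adjusted p = 0.0797). Smarcd3, an accessory subunit, stayed between 4.83 and 10.6 CPM.

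Among the methyltransferases 3 rose, 1 fell and 12 did not pass. Kmt2d, which methylates histone H3 lysine 4 at enhancers, had the largest log2 fold change of the 75 genes with entinostat, at 1.01 (SE 0.21, edgeR adjusted p = 0.0178). It stood at 271, 162 and 269 CPM with the combination, 208, 216 and 210.2 with entinostat, 132, 215 and 90.5 with anti-PD-1, and 66.6, 86.3 and 97.9 in the control group. The entinostat libraries were tightly grouped and all 6 libraries with entinostat lay above control, while anti-PD-1 library 2 lay at the level of the entinostat group. The call was lost without combination library 1 alone of the 12 libraries.

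The other H3 lysine 4 enzymes of the family lay the same way by their values but did not pass. Kmt2c, the closest relative of Kmt2d, averaged 293 ± 57.6 CPM with the combination, 306 ± 98.3 with entinostat, 243 ± 78.1 with anti-PD-1 and 174 ± 54.6 in the control group (SD, n = 3 each; log2 fold change 0.54 with entinostat). Kmt2a averaged 279.9 ± 75.6, 243 ± 68.6, 233 ± 43.7 and 153 ± 69.0 CPM in that order (log2 fold change 0.46), and Kmt2b 79.7 ± 16.0, 73.9 ± 5.61, 68.7 ± 20.9 and 46.8 ± 16.2 (log2 fold change 0.44). Setd1a, which methylates the same residue at promoters, averaged 59.0 ± 8.72, 51.8 ± 5.06, 42.9 ± 15.1 and 30.7 ± 9.22 CPM. It rose for the combination against control (log2 fold change 0.94, SE 0.27, edgeR adjusted p = 0.0465) and missed the threshold for entinostat over both antibody settings (0.61, SE 0.19, edgeR adjusted p = 0.0635). The call for the combination held in 1 of 6 fits that left out a library. It was also lost without the filter on low counts, with the replicate number as a block, and with Kdm5d reads or the alveolar level as a covariate. The same was so with the trend over transcript length removed and in the fit on the compared groups alone.

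Setd2, the enzyme that trimethylates H3 lysine 36 along transcribed genes, stood at 176, 152 and 194 CPM with the combination, 167, 175 and 194 with entinostat, 147, 159 and 148 with anti-PD-1, and 104, 108 and 124 in the control group. All treated libraries lay above all control libraries. Its log2 fold change with entinostat was 0.44 (SE 0.11, edgeR adjusted p = 0.0301), a call that held in 4 of 12 fits that left out a library. Setd7, which methylates H3 lysine 4 and many other proteins, stood at 125, 149.8 and 129 CPM with the combination, 155, 151 and 129 with entinostat, 94.7, 103 and 56.0 with anti-PD-1, and 57.6, 89.9 and 91.1 in the control group. Here the 6 libraries with entinostat lay above the 6 without, and the anti-PD-1 libraries overlapped control. The log2 fold change was 0.77 (SE 0.17, edgeR adjusted p = 0.0221).

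Setd3 is a histidine methyltransferase of actin and is counted here by its name. It stood at 70.9, 75.4 and 87.3 CPM with the combination, 90.7, 78.8 and 84.8 with entinostat, 115, 107 and 144 with anti-PD-1, and 115, 124 and 106 in the control group. The 6 libraries with entinostat lay below the 6 without, and anti-PD-1 overlapped control. Its fall (log2 fold change −0.54, SE 0.12, edgeR adjusted p = 0.0193) held in 10 of 12 fits that left out a library. Setd8 is the older symbol of Kmt5a, and Kmt5b and Kmt5c stand in the table under older names that the rule does not match.

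Within PRC2, 1 gene rose and 3 did not pass. Ezh1, the catalytic subunit typical of non-dividing cells, stood at 29.1, 28.8 and 30.5 CPM with the combination, 24.8, 29.7 and 28.0 with entinostat, 14.3, 21.9 and 23.0 with anti-PD-1, and 19.0, 14.4 and 22.5 in the control group. The 6 libraries with entinostat lay above the 6 without. Its log2 fold change was 0.57 (SE 0.16, edgeR adjusted p = 0.0469), and the call held in 1 of 12 fits that left out a library. Ezh2, the catalytic subunit of proliferating cells, averaged 125 ± 9.21 CPM with the combination, 144 ± 20.8 with entinostat, 147 ± 35.2 with anti-PD-1 and 154 ± 3.98 in the control group (SD, n = 3 each). The scaffold Suz12 spanned 147 to 210.2 CPM in the 6 libraries with entinostat and 136 to 173 in the 6 without, and the subunit Eed 41.1 to 53.1 and 39.3 to 57.0 CPM.

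Ep300 was the acetyltransferase that rose. With its homologue Crebbp it acetylates histone H3 lysine 27 at active enhancers. Ep300 stood at 86.8, 93.0 and 89.3 CPM with the combination, 118, 94.3 and 108 with entinostat, 93.9, 96.1 and 94.6 with anti-PD-1, and 61.8, 60.5 and 53.8 in the control group. All 9 treated libraries lay above all 3 control libraries, those with anti-PD-1 alone included. Every combination library lay below every anti-PD-1 library, so Ep300 did not rise with entinostat where the antibody was given. Against control, its log2 fold change was 0.61 with the combination (SE 0.15, edgeR adjusted p = 0.0247), 0.87 with entinostat (SE 0.15, edgeR adjusted p = 0.0157) and 0.69 with anti-PD-1 (SE 0.15, edgeR adjusted p = 0.11, not passed). Over both antibody settings it was 0.39 (SE 0.10, edgeR adjusted p = 0.0352), and that call held in 1 of 12 fits that left out a library. Crebbp spanned 81.7 to 108 CPM in the 6 libraries with entinostat and 58.6 to 138 in the 6 without, and did not pass. Kat2a, an acetyltransferase of the SAGA complex, spanned 52.1 to 79.7 CPM with entinostat and 34.4 to 79.9 without. Kat2b, its homologue, spanned 24.5 to 31.4 and 30.5 to 52.4 CPM (log2 fold change −0.43, SE 0.14, edgeR adjusted p = 0.0687).

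Of 18 demethylases 1 rose, 1 fell and 16 did not pass. Kdm6b, which removes the H3 lysine 27 methylation that PRC2 sets, stood at 47.7, 55.0 and 71.2 CPM with the combination, 49.8, 47.2 and 45.9 with entinostat, 30.7, 48.1 and 23.4 with anti-PD-1, and 28.4, 19.7 and 35.8 in the control group. The libraries with entinostat lay above control, and anti-PD-1 library 2 lay among them. The log2 fold change was 0.77 with entinostat over both antibody settings (SE 0.20, edgeR adjusted p = 0.0367), a call that held in 2 of 12 fits that left out a library. Kdm4b, which demethylates H3 lysine 9, stood at 34.1, 33.0 and 50.4 CPM with the combination, 44.6, 44.0 and 31.9 with entinostat, 62.7, 54.9 and 73.5 with anti-PD-1, and 55.3, 45.0 and 87.8 in the control group. Combination library 3 overlapped control library 2, and the log2 fold change was −0.67 (SE 0.19, edgeR adjusted p = 0.0471), held in 3 of 12 fits that left out a library.

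Kdm1a (LSD1), which removes H3 lysine 4 methylation and works in a complex with the HDACs that entinostat inhibits, had the highest level per transcript length of the 75 genes, at 66.1 CPM per kilobase. It averaged 164 ± 35.1 CPM with the combination, 197 ± 47.6 with entinostat, 188 ± 43.8 with anti-PD-1 and 252 ± 46.4 in the control group (SD, n = 3 each), and did not pass with entinostat (log2 fold change −0.28, SE 0.18, edgeR adjusted p = 0.33). The H3 lysine 4 demethylases Kdm5a and Kdm5b spanned 111 to 161 and 45.6 to 96.5 CPM in the 6 libraries with entinostat, and 88.3 to 143 and 50.5 to 77.4 CPM in the 6 without. Kdm2a, which removes H3 lysine 36 methylation, and Kdm4a, which removes H3 lysine 9 methylation, had log2 fold changes of 0.42 and −0.30 and did not pass. Chd4 (58.3), Ezh2 (51.1) and Smarce1 (47.6) followed Kdm1a in CPM per kilobase, and Kdm4d was lowest at 0.18.

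Kdm5d lies on the Y chromosome and its X-linked homologue is Kdm5c. Kdm5d had 40.6 to 47.1 CPM in combination library 1, entinostat libraries 2 and 3, anti-PD-1 library 3 and control libraries 1 and 2, and 0 counts in the other 6, where 3 counts would correspond to 0.066 to 0.106 CPM. The libraries thus split by this gene within every group. In the 6 with Kdm5d reads the Y-linked Uty stood at 47.6 to 78.8 CPM and Xist, the RNA of the inactive X chromosome, at 0.274 to 2.05 CPM. In the 6 without, Uty stood at 0 to 0.022 CPM and Xist at 1111 to 4953 CPM. By these genes every group held tumours of male and of female mice. Kdm6a, an X-linked H3 lysine 27 demethylase, stood at 68.6 CPM in the combination library with Kdm5d reads and at 74.0 and 92.6 in the other two. With entinostat it stood at 61.3 and 60.5 CPM in libraries with Kdm5d reads and 71.4 in the other, with anti-PD-1 at 41.8 and at 74.9 and 86.7, and in the control group at 41.5 and 55.9 and at 65.6. In each group Kdm6a was higher in the libraries without Kdm5d reads. Kdm5c overlapped between the 2 kinds of library, at 46.2 to 110.3 CPM with Kdm5d reads and 101 to 155 CPM without. The presence of Kdm5d reads was also fitted as a covariate, a setting chosen after the values were seen. Then 10 chromatin genes and 8.61% of all genes passed for entinostat, and Ezh1 and Kdm4b did not.

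**Figure D2:**
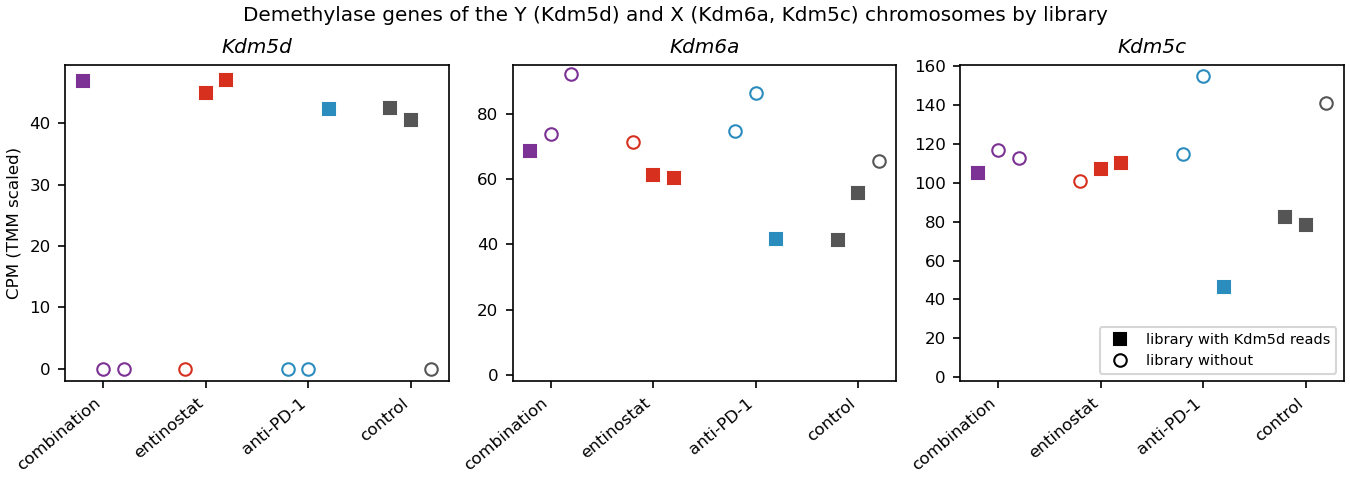
Level of the Y-linked gene Kdm5d and the X-linked genes Kdm6a and Kdm5c in each library, in CPM scaled by TMM factors on linear axes; squares are the 6 libraries with Kdm5d reads and open circles the 6 without. Kdm5d is at 40.6 to 47.1 CPM or at 0, and within each group Kdm6a is higher in the libraries without it.

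CHD remodellers gave 1 rise and 9 genes that did not pass. Chd8, which binds active promoters, stood at 167, 159.9 and 188 CPM with the combination, 156, 155 and 188 with entinostat, 136, 178 and 166 with anti-PD-1, and 91.4, 105 and 91.6 in the control group. Every treated library lay above every control library, and the combination libraries overlapped those with anti-PD-1. Its log2 fold change with entinostat was 0.45 (SE 0.12, edgeR adjusted p = 0.0353), held in 3 of 12 fits that left out a library, and 0.84 for the combination against control (SE 0.17, edgeR adjusted p = 0.0139). Chd4, the ATPase of the NuRD complex that carries Hdac1 and Hdac2, averaged 421 ± 47.1, 453 ± 21.3, 349 ± 93.2 and 338 ± 45.3 CPM in the combination, entinostat, anti-PD-1 and control groups (SD, n = 3 each), with a log2 fold change of 0.35 (edgeR adjusted p = 0.138). Chd7, mutated in CHARGE syndrome, spanned 124 to 235 CPM in the 6 libraries with entinostat and 54.2 to 345 in the 6 without. Chd1, which binds H3 lysine 4 methylation, had a log2 fold change of 0.52 (edgeR adjusted p = 0.0656), and Chd2 of 0.38 (edgeR adjusted p = 0.106). Chd3 overlaps the antisense gene Chd3os, and the strand setting of the counts is not known, so the reads of the 2 cannot be told apart.

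None of the 7 bromodomain genes passed. Brd2, which binds acetylated histone H4, spanned 141 to 231 CPM with entinostat and 114 to 209 without. Brd8 (log2 fold change 0.12) and Brd9 (−0.15) did not pass either. Chromatin genes outside the rule for naming had log2 fold changes with entinostat between −0.57 (Kdm7a) and 0.67 (Setd5), and the smallest edgeR adjusted p among them was 0.0754. Of the 3 genes set apart, Chd3os stood at −0.89, Chdh at 0.35 and Smarca5-ps at 0.40, and none passed.

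**Figure D3:**
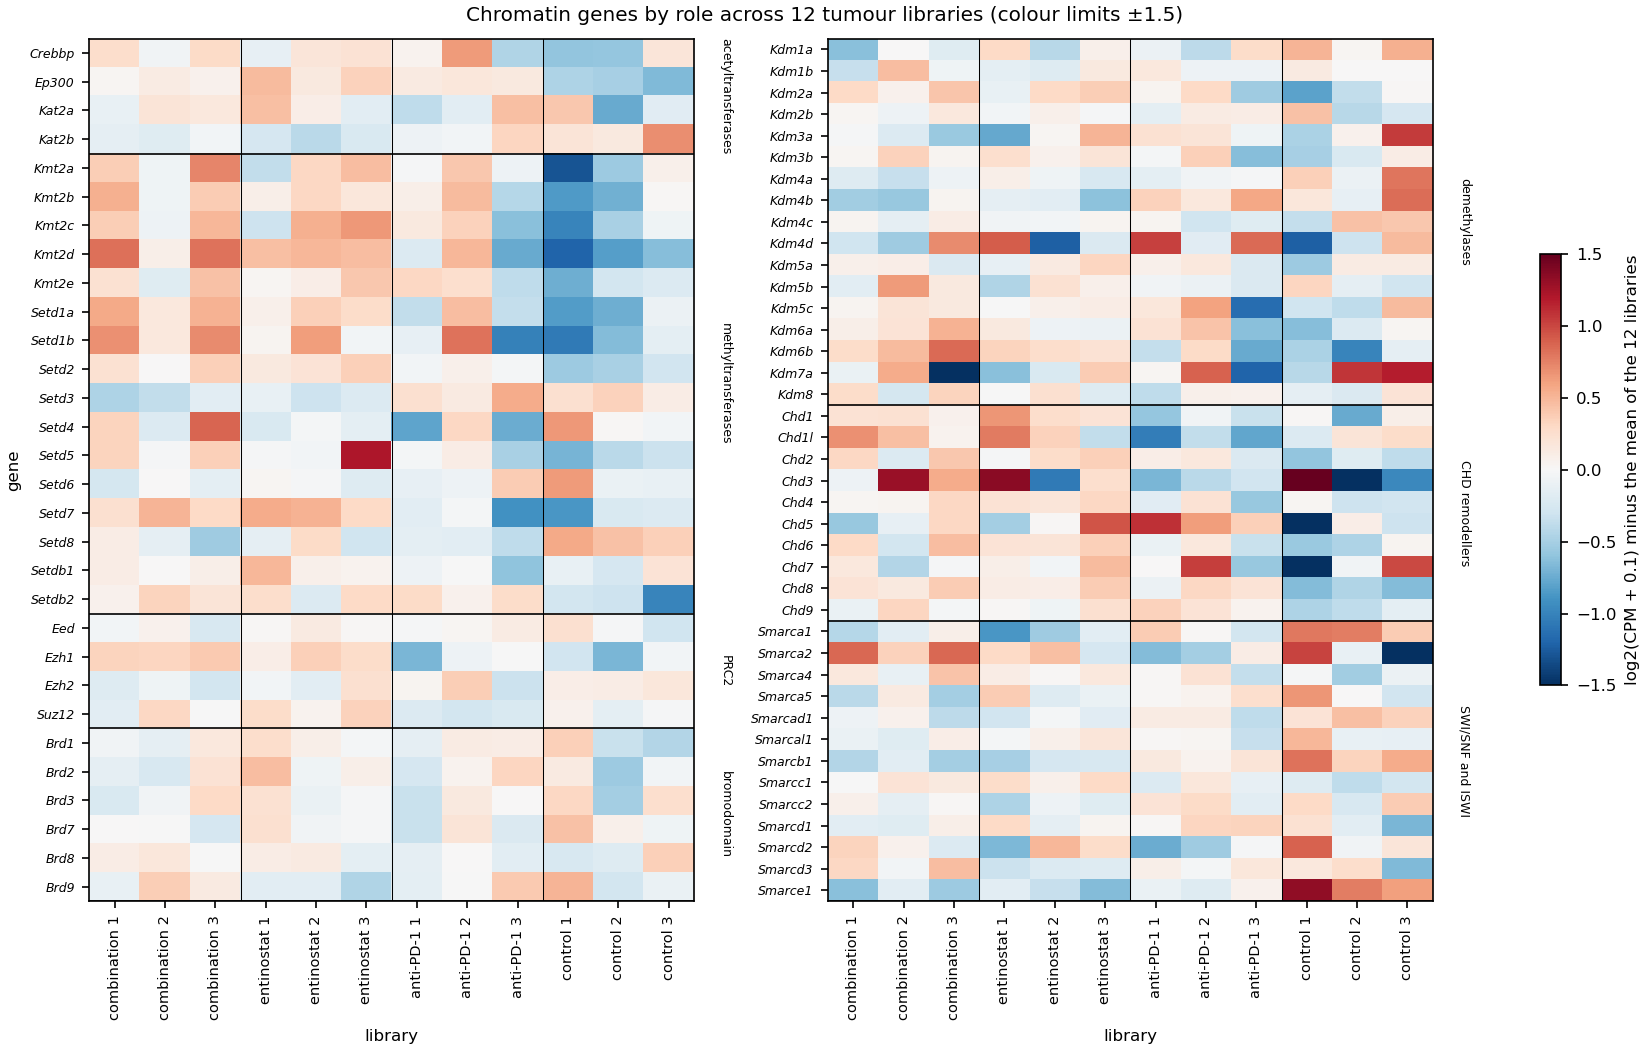
Level of chromatin genes by role in the 12 libraries, as log2(CPM + 0.1) minus the gene's mean over the libraries, with colours limited at ±1.5; some genes are not drawn, among them the 3 set apart and Kdm5d. Methyltransferases such as Kmt2d and Setd2 are red to white with the combination and entinostat and blue in control, and Smarce1 and Smarcb1 the reverse.

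Against control, entinostat alone changed 7 of the 75 genes, 4 higher (Ep300, Chd8, Kmt2d and Setd2) and 3 lower (Smarce1, Smarcb1 and Smarca1), while 5.27% of all genes changed. With the replicate number as a block 2 remained, Smarce1 and Ep300, and 1.84% of all genes passed. The combination changed 8, with 6 higher (Chd8, Kmt2d, Ep300, Setd2, Kdm6b and Setd1a) and 2 lower (Smarce1 and Smarcb1), against 11.7% of all genes. These 2 comparisons share the control libraries. Fitted on the compared groups alone, 0 chromatin genes and 0% of all genes passed in either. With upper quartile scaling the split was 5 higher and 2 lower for entinostat and 12 higher and 2 lower for the combination. Over all genes it was then 325 higher and 236 lower for entinostat (3.22%), and 1100 and 611 for the combination (9.82%). With TMM factors the splits over all genes were 226 higher and 693 lower, and 677 and 1356. Without entinostat library 2 or entinostat library 3 the count for entinostat was 0, with 0.235% and 0.0112% of all genes. Leaving out entinostat library 1 or control library 1 gave 2, with 1.11% and 1.39% of all genes, and leaving out control library 2 gave 4, with 2.96%. Without combination library 1 or combination library 3 the count for the combination was 1, with 1.72% and 2.16% of all genes, and without control library 1 it was 5, with 5.16%.

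With anti-PD-1 alone 0 of 75 genes passed against control by edgeR, against 0.00574% of all genes, which is 1 gene. At an unadjusted p under 0.05 there were 14, 7 higher and 7 lower, or 18.7% against 15.4% of all genes, and DESeq2 called 3 (Ep300, Chd8 and Smarce1), against 4.04% of all genes. This comparison shares its control libraries with the other comparisons against control. The smallest p-values belonged to Ep300 (log2 fold change 0.69), Smarce1 (−1.01, SE 0.23, edgeR adjusted p = 0.113) and Chd8 (0.74, SE 0.17, edgeR adjusted p = 0.113). Kmt2d had a log2 fold change of 0.80 and Smarcb1 of −0.45 there, whereas Setd7 and Setd3 stood at 0.09 each.

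The interaction, which asks whether the effect of entinostat differed with the antibody, gave 0 of 75 genes by edgeR, against 0% of all genes, and 1 by DESeq2, Ep300, against 0.344%. At an unadjusted p under 0.05 there were 5 chromatin genes, or 6.67%, against 6.04% of all genes. Ep300 was closest, with a log2 difference of −0.95 (SE 0.21, edgeR adjusted p = 0.541). The combination against anti-PD-1 gave 0 genes by edgeR, as it did over all genes (0%), with 8 at an unadjusted p under 0.05 (10.7%, against 12.4% of all genes) and 2 by DESeq2, against 2.43% of all genes. Setd3 had the smallest p there (log2 fold change −0.65, SE 0.17, edgeR adjusted p = 0.207), and Chd1l, a remodeller recruited by poly(ADP-ribose), followed (log2 fold change 1.13, SE 0.32, edgeR adjusted p = 0.231). The combination against entinostat gave 0 by either tool, as over all genes by edgeR (0%), and 0 at an unadjusted p under 0.05, against 1.55% of all genes. The smallest p-values there belonged to Ep300 (log2 fold change −0.25), Brd9 (0.40) and Smarcd3 (0.50), each at an edgeR adjusted p of 1.

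The direction of change went with transcript length. The chromatin genes are long, with a median of 5180 nt for the longest protein-coding transcript against 2956 nt over tested genes. Of the 75, 49 fell in the longest quartile of all tested genes, above 4476 nt. In that quartile the median log2 fold change with entinostat was 0.17 over all genes, against −0.14 in the shortest quartile. Over all genes, 7.32% of the longest quartile were higher and 1.96% lower, against 1.68% and 12.7% in the shortest. Of the 7 chromatin genes that rose 6 lay in the longest quartile and 1 (Ezh1, 4207 nt) in the third. Of the 5 that fell, 3 lay in the 2 shortest quartiles (Smarcb1, 1660 nt, Setd3, 2755 nt, and Smarce1, 2919 nt), and Kdm4b (4577 nt) and Smarca1 (4798 nt) near the lower edge of the longest. Across the 75 genes, which share the 12 libraries and are not independent, Pearson's r between log2 length and log2 fold change was 0.51.

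**Figure D4:**
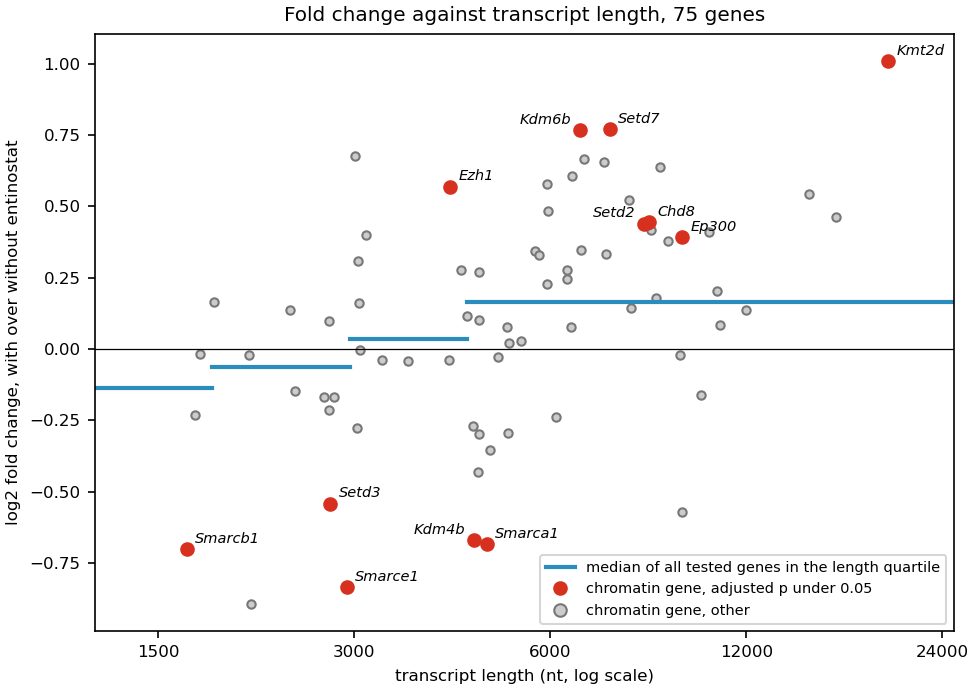
Log2 fold change with entinostat (6 libraries with over 6 without) against the length of the longest protein-coding transcript in nt on a log axis, for the 75 genes; red points passed the test and blue lines give the median of all tested genes in each length quartile, drawn to the limits of the axis. The blue medians step up with length, and the red points above 0 lie mostly at longer transcripts than those below.

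When a smooth trend of each library over transcript length was removed, a setting chosen after that pattern was seen, 6 chromatin genes passed, 0 higher and 6 lower, against 7.68% of all genes. All 7 rises were lost and all 5 falls stayed, joined by Kat2b. The log2 fold change became 0.08 for Ep300 (edgeR adjusted p = 0.713), 0.16 for Chd8 (edgeR adjusted p = 0.419) and 0.17 for Setd2 (edgeR adjusted p = 0.304). It remained larger for Kmt2d (0.55, edgeR adjusted p = 0.0514), Setd7 (0.55, edgeR adjusted p = 0.054) and Kdm6b (0.57, edgeR adjusted p = 0.0665). It was −0.86 for Smarce1, −0.60 for Smarcb1, −0.82 for Smarca1, −0.79 for Kdm4b and −0.55 for Setd3. A first definition of length, the longest transcript of any kind, was replaced after its results were known, because transcripts that code for no protein set the length of some genes. It gave the same counts for entinostat over both antibody settings, with 0 genes higher and 6 lower, against 8.15% of all genes. The smooth also removes any real change shared by long genes, and the 2 cannot be told apart here.

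**Figure D5:**
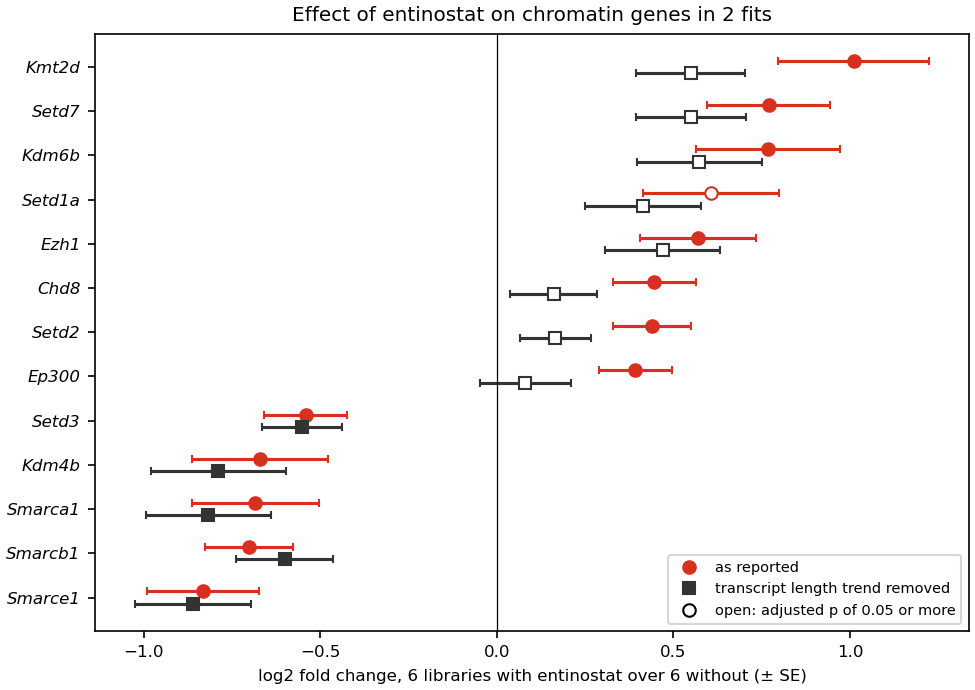
Log2 fold change with entinostat (± SE) of the 13 chromatin genes that passed in any comparison, in the fit as reported (circles) and with the trend over transcript length removed (squares); filled symbols passed the test. All 5 genes that fell pass in both fits, and none of those that rose passes once the trend is removed.

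Partners of these enzymes outside the rule were counted from 10 lists of complexes. With entinostat 17 of 109 changed, 8 higher and 9 lower, or 15.6% against the 10.6% of all genes. Those higher included Nsd1, an H3 lysine 36 methyltransferase of 12784 nt (log2 fold change 0.58, SE 0.11), at 388 ± 43.8 CPM in the 6 libraries with entinostat and 261 ± 45.3 in the 6 without. Bcl11a, a SWI/SNF subunit (0.77, SE 0.15), Phc3 of PRC1 (0.80, SE 0.16) and Bptf, the reader subunit of an ISWI complex (0.50, SE 0.13), were higher too. Those lower included the SWI/SNF subunit Actl6a, of 2010 nt (−0.59, SE 0.16), at 77.7 ± 22.1 and 122 ± 46.9 CPM in libraries with and without entinostat (SD, n = 6 each). Mbd3 of NuRD (−0.65, SE 0.14), Bmi1 and Rnf2 of PRC1 (−0.76, SE 0.18, and −0.64, SE 0.17), Rbbp4, a histone-binding subunit of several complexes (−0.63, SE 0.17), and Dpy30 of the COMPASS complexes, of 789 nt (−0.70, SE 0.20), were lower. For BAF and PBAF partners 1 of 17 rose and 1 fell, and for COMPASS partners 0 of 10 rose and 1 fell.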

How the data were processed

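RNA-seq of poly(A) RNA from flash-frozen mouse lung tumour gave 12 libraries, grouped by title. The authors deposited raw counts per gene; per the submitters' processing notes, the build was mm9, and the notes list STAR 2.5.4a, DESeq2 1.22.2 with R 3.5.1, Trimmomatic 0.36 and Trim Galore. Annotation, strand setting and handling of multiply mapped reads: not given in the sources used here. Among counts of 1 to 20, 65.3% to 77.2% per library are even, and halved counts were tried as an alternative. The combination libraries' treatment tag names the antibody alone, and their titles were followed.

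Counts were fitted with edgeR 4.0.16 in R 4.3.3 (filterByExpr, 17426 genes, TMM, robust quasi-likelihood test, 1 mean per group over 12 libraries). Alternatives were RLE and upper quartile factors, no filter, halved counts, covariates, DESeq2 1.42.0, a length offset, fits on the compared groups and fits without each library. Transcript lengths came from GENCODE vM21 (GRCm38), longest protein-coding transcript, for 98.4% of tested genes. The scripts were tested on simulated data. The genes, lists and tests were chosen with earlier results of these data known. Genes named are those past the threshold, up to 4 per role by smallest p, a fixed list of well-known enzymes, and the 3 smallest p-values where none passed. All 66 library pairs differed by more than sampling noise. The values of 1 gene are not reported here, though it stays in the counts and fits. Replicate numbers come from the titles, and whether they mark shared litters or days is not given in the labels. Deviations from group means correlated at 0.18, 0.17 and 0.20 for the 3 same-numbered pairs of entinostat and control, and at −0.29 to 0.23 over all 18 pairs, of which 8 were over 0.1.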

Additional observations from a re-analysis of the deposited data

Results flagged for a closer look

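In 4 of 86 sets of 6 libraries (43 named genes, with and without entinostat) a single library lay far from the other 5, and chance flags about 1 in 20 such sets. Kdm6b stood at 71.2 CPM in combination library 3, above 45.9 to 55.0 CPM in the other 5 libraries with entinostat. Chd1 stood at 165 CPM in entinostat library 1, the highest of the 6 with entinostat. Brd8, a bromodomain subunit of an acetyltransferase complex, stood at 142 CPM in control library 3, and Kdm5b at 77.4 CPM in control library 1, each the highest of the 6 without entinostat. No cause was tested.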

How the results depend on the processing

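None of the calls in single genes changed direction under any alternative run: over all 43 named genes and 7 comparisons 335 of 5546 values changed sign, 0 of them from a called value and 0 past the threshold. Of the 75 genes 12 passed with entinostat as reported, against 10.6% of all genes. The number was 12 with RLE factors (10.6% of all genes) or halved counts (11.9%) and 14 with upper quartile factors (9.63%). It was 8 without the filter (7.55%), 10 with Kdm5d reads as a covariate (8.61%) and 6 with either length offset (7.68% and 8.15%). It was 0 with the alveolar covariate (1.56%), 18 with DESeq2 (19.6%), and 2 to 12 when a library was left out (3.37% to 11.3%). Of the 12 reported, 9 were among those called with upper quartile factors, 5 with the length offsets and 12 with DESeq2, which called 19.6% of all genes. For entinostat against control (7 genes) the counts were 0 with the alveolar covariate or the compared groups alone. They were 2 and 3 with the length offsets, 12 with DESeq2 and 0 to 7 without a library. Of all genes 0%, 0%, 2.57%, 2.97% and 13.7% passed in that order, and 0.0112% to 5.62% without a library. For the combination against control (8 genes) the counts were 14 with upper quartile factors, 1 with the alveolar covariate and 4 with Kdm5d reads as a covariate. They were 0 with the compared groups alone, 15 with DESeq2 and 1 to 10 without a library. Here 9.82%, 1.87%, 6.13%, 0% and 20.6% of all genes passed in that order, and 1.72% to 9.99% without a library. DESeq2 called 3 genes for anti-PD-1, 2 for the combination against anti-PD-1 and 1 in the interaction, against 4.04%, 2.43% and 0.344% of all genes. There edgeR called 0, as it did in each fit without a library. The causes were not tested.

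Between same-numbered libraries every r was over 0.1 for entinostat and control, and for no other pair of groups. Single values of other pairs were higher, at 0.23 (combination and anti-PD-1, number 3) and 0.21 (anti-PD-1 and control, number 2). Others were negative, down to −0.29 (combination and control, number 1). With the replicate number as a block 5, 2 and 4 chromatin genes passed for entinostat, entinostat against control and the combination against control. In the same order 5.59%, 1.84% and 6.24% of all genes passed. In the other 4 comparisons 0 chromatin genes and 0% of all genes passed.

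Values that changed sign with entinostat, none past the threshold, are given here for the named genes other than Kdm5d. With the length trend removed log2 fold changes became −0.024 for Brd2, −0.11 for Crebbp, 0.033 for Eed, −0.25 for Kdm5a, −0.11 for Kdm5b, −0.096 for Kdm5c and 0.085 for Smarcd3. With the first length definition they were −0.10 for Crebbp, 0.043 for Eed, −0.25 for Kdm5a, −0.10 for Kdm5b and −0.085 for Kdm5c. Upper quartile factors gave 0.11 for Eed and 0.11 for Smarcd3, and the alveolar covariate −0.015 for Kdm5a. Without a library in turn, Chd7 ranged between −0.38 and 0.22, Eed between −0.086 and 0.048, Kdm5a between −0.013 and 0.14, Kdm5c between −0.11 and 0.26 and Smarcd3 between −0.14 and 0.068. For anti-PD-1 against control Kdm4b became −0.014 and Setd7 −0.053 with Kdm5d reads as a covariate, −0.040 and −0.15 with the length trend removed, and −0.020 and −0.14 with the first length definition. Without a library in turn Kdm6b ranged there between −0.067 and 0.50, Ezh1 between −0.076 and 0.25, Setd3 between −0.063 and 0.16, Kdm4b between −0.17 and 0.34 and Setd7 between −0.10 and 0.30.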
